A study of Mus musculus with 6 samples.

Results

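The neuropeptide precursors of the suprachiasmatic nucleus (SCN) were taken as 10 genes, Vip, Grp, Avp, Penk, Sst, Cck, Prok2, Tac1, Gal and Pdyn, out of 12393 genes named in the array table. They were picked by gene symbol from peptides known in SCN neurons, and every probe set that carries 1 of these symbols was included. This gave 12 of the 22626 probe sets, with 3 for Prok2 and 1 for each of the other genes. A probe set is a group of short oligonucleotides on the Affymetrix Mouse 430A 2.0 array that together read a transcript. Light pulse mice were C57BL/6 males of 2 to 4 months that received light of 2400 lux for 30 minutes, beginning 1 hour into the dark phase of a 14:10 light/dark cycle. Sham light pulse mice shared strain, sex, age and housing and were left in the dark for the same 30 minutes. Both groups were killed 1.5 hours after lights off, and each had 3 arrays. An array held the RNA of 3 pooled mice, from 18 laser-captured sections of 12 μm, so that neither single mice nor subregions of the SCN were resolved. Fewer cells expressing a peptide and less of its RNA per cell cannot be told apart in such pools.

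Neuropeptides are made as longer precursors that are cut in secretory granules and released beside classical transmitters. In the SCN the ventral core receives the retinal input and holds neurons expressing Vip and Grp, while Avp, Penk and Prok2 mark neurons of the dorsal shell. Vasoactive intestinal polypeptide couples SCN neurons to each other, gastrin-releasing peptide can shift the clock as light does, and vasopressin and prokineticin 2 are clock-controlled outputs. Somatostatin, cholecystokinin, substance P (from Tac1), galanin and the dynorphins (from Pdyn) are found in smaller or more scattered groups of cells in the SCN or its surroundings.

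The arrays carried the transcripts of SCN tissue. All 11 of 11 SCN neuron markers, among them the transcription factors Six6 and Lhx1, were kept for testing, where 6739 of the 12393 named genes were kept. Gad2 and Rorb, 2 of these markers, reached the limit for keeping on only 3 and 4 arrays. A probe set was kept if its signal on the array of rank 3, counted from the highest of 6, was among the highest, by the number of probe sets that the study's own filter left, and the lowest such signal was 118.2 in arbitrary units. The light response was present in the RNA. Fos, an immediate-early gene of activated neurons, had signals of 14254, 10400 and 14457 on the light pulse arrays and of 667.7, 297.6 and 370 on the sham light pulse arrays. Limma put Egr1, another such gene, at a log2 fold change of 4.84 (standard error 0.32, adjusted p = 3.35e-06). Light pulse replicate 3 stood apart from the other arrays. It had the most probe sets above 118.2 (10709, against 9890 to 10443). Its median correlation with them was the lowest (0.898), but sham light pulse replicate 2 was close (0.905). The remaining arrays had 0.917 to 0.922. Of 8 choroid plexus markers measured, Ttr was the only one kept, and it had a signal of 110323 on this array, against at most 206.5 on the other light pulse arrays and at most 295.6 on the sham light pulse arrays. The summed signal of the 8 markers ran from 153 to 110800 in the light pulse group and from 251.5 to 423.1 in the sham light pulse group. Without this array the log2 fold changes given below for all arrays were 0.25 for Vip, 0.16 for Grp, 0.82 for Avp, 0.14 for Penk, 0.44 for Prok2, 0.59 for Sst, -0.17 for Cck, -0.28 for Tac1 and 0.0061 for Gal. None of these genes was called then either.

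Of the 12 probe sets, 8 were kept, 1 for each of Vip, Grp, Avp, Penk, Prok2, Sst, Cck and Tac1. The 2 other Prok2 probe sets and those of Gal and Pdyn were not. The members lay far apart in signal, although probe sets differ in how well they bind, so that this is an order of signals and not of RNA amounts. Vip had signals of 30271 to 64589 over the 6 arrays and Grp of 5949 to 7297, and neither range met its neighbour's. Penk, at 751 to 1383, overlapped with Avp, at 282.4 to 981.7, and Avp with Cck, at 230.1 to 408.4. From Cck downward the ranges of Tac1, Sst and Prok2 ran into each other between 104.7 and 249.6. Just inside the limit of 118.2 was the best Prok2 probe set, with a rank 3 signal of 167.2, and just outside it was Gal, with 117.4. Pdyn was lowest, at 3.5 to 62.8, under 118.2 on all 6 arrays.

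**Figure D1:**
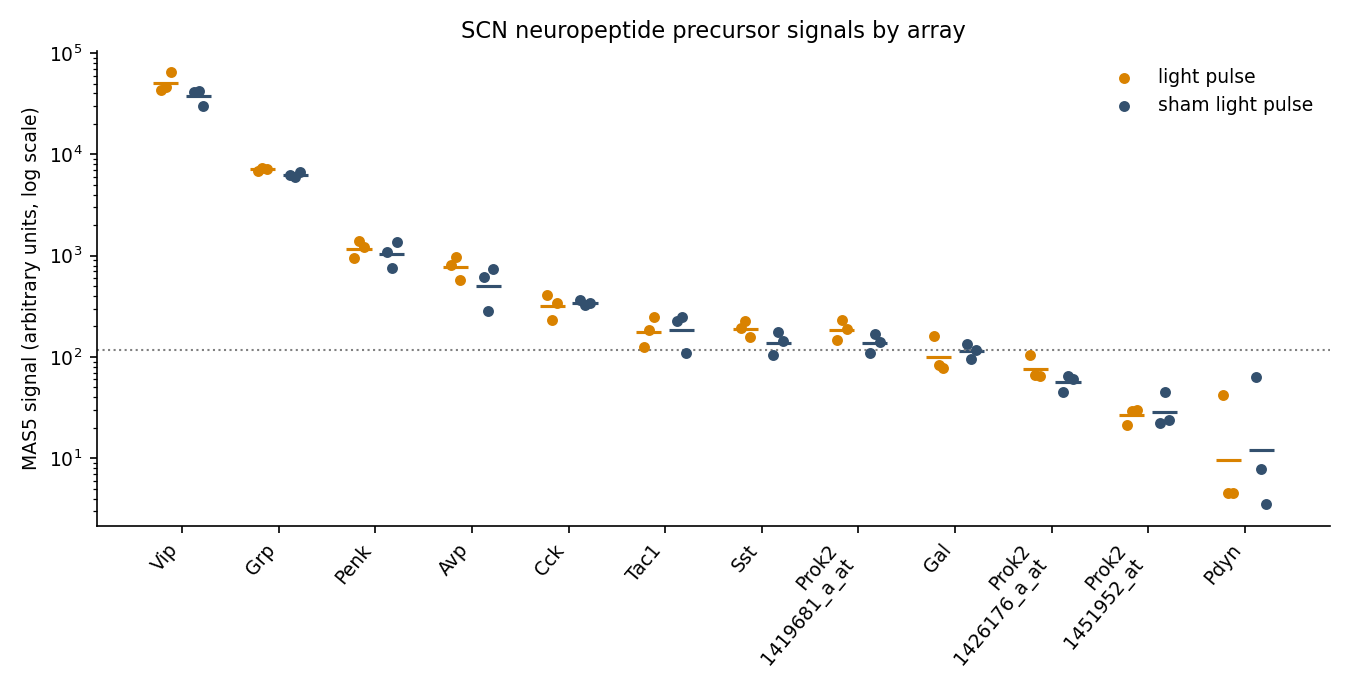
MAS5 signal (arbitrary units, log axis) of the 12 probe sets of the 10 peptide precursor genes, ordered by mean signal, with 1 point per array (3 light pulse arrays left of 3 sham light pulse arrays) and bars at the geometric means. The dotted line marks 118.2, the limit for keeping a probe set, and the signals run from 64589 for Vip to 3.5 for Pdyn.

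None of the peptide precursors passed the test for a difference at the end of the light pulse. Limma called 0 of the 8 kept members, where it called 7 probe sets in all, or 0.0677% of those kept. An unadjusted limma p under 0.05 was found for 1 member (Vip) and for 4.31% of the kept probe sets. The Cyber-T test that the study's methods name called 0 members and gave 0 at an unadjusted p under 0.05, against 4.27% of the kept probe sets. Log2 fold changes of the 8 ran from -0.12 for Cck to 0.61 for Avp, with a median of 0.30 beside 0.00 over 6739 genes, and 6 of 8 lay above 0, as did 3375 of the 6739 genes. The median size of the change, whatever its direction, was 0.30 for the members and 0.26 for all genes. For Vip, Grp, Penk and Cck the whole 95% confidence interval lay within 2-fold in both directions, and for Avp, Prok2, Sst and Tac1 it did not. With 3 arrays in each group the smallest two-sided p of an exact permutation test is 0.1.

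**Figure D2:**
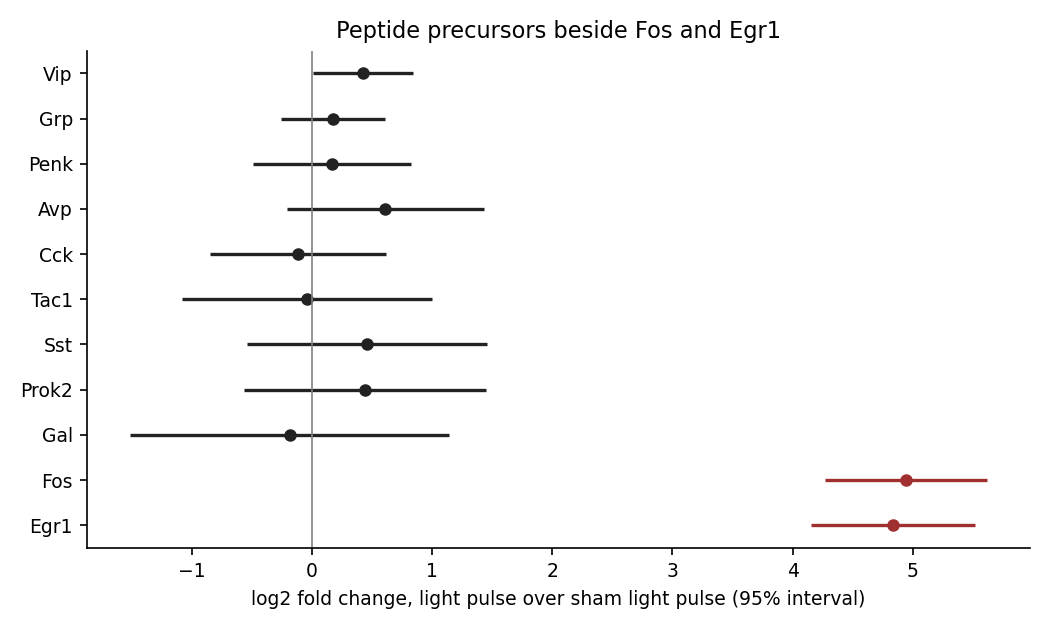
Log2 fold change of light pulse over sham light pulse with 95% confidence intervals from limma, for the 8 kept members, for Gal from a fit of all probe sets, and for Fos and Egr1 as genes that light induces. The members lie between -0.19 for Gal and 0.61 for Avp, while Fos and Egr1 lie at 4.94 and 4.84.

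Vip, the precursor of vasoactive intestinal polypeptide and of a second related peptide, gave the highest signal of the members. It was read at 43194, 46397 and 64589 on the light pulse arrays and at 41694, 41960 and 30271 on the sham light pulse arrays (probe set 1428664_at). The groups did not overlap, but light pulse replicate 1 and sham light pulse replicate 2 were close. The size of the difference rested mostly on light pulse replicate 3 and sham light pulse replicate 3. The means were 51390 ± 11540 after the light pulse and 37980 ± 6673 after the sham light pulse (SD, n = 3 each). The ratio of geometric means was 1.35-fold (95% confidence interval 1.01 to 1.80), which is 0.43 on the log2 scale (standard error 0.19). It did not pass (adjusted p = 0.960 from limma). Without light pulse replicate 3 the log2 fold change was 0.25, and without sham light pulse replicate 3 it was 0.27.

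The most intense probe sets of the arrays moved with Vip. The 100 other probe sets of highest mean signal had median signals of 35020, 33220 and 40850 on the light pulse arrays and of 33210, 32040 and 24530 on the sham light pulse arrays. Like Vip they were highest on light pulse replicate 3 and lowest on sham light pulse replicate 3. Their median log2 fold change was 0.32, 99 of the 100 lay above 0, and 19 reached the value of Vip or more. After quantile normalization, which gives all arrays the same distribution of signals, Vip stood at 41220, 50890 and 44700 on the light pulse arrays and at 42530, 42260 and 42260 on the sham light pulse arrays. The groups then overlapped and the log2 fold change was 0.10 (standard error 0.11). With cyclic loess normalization, added after the data were seen, it was 0.16 (standard error 0.13) and the groups overlapped as well. The 3 genes with the profile most like that of Vip, measured as the root mean square difference of mean-centred log2 signals over the 6 arrays, were Rbbp4 (0.053), Dner (0.054) and Ndufc2 (0.054). All 3 are read at high signals by probe sets whose ID endings mark targets shared with other transcripts, and 173 of 6731 genes lay within 0.2 of Vip.

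**Figure D3:**
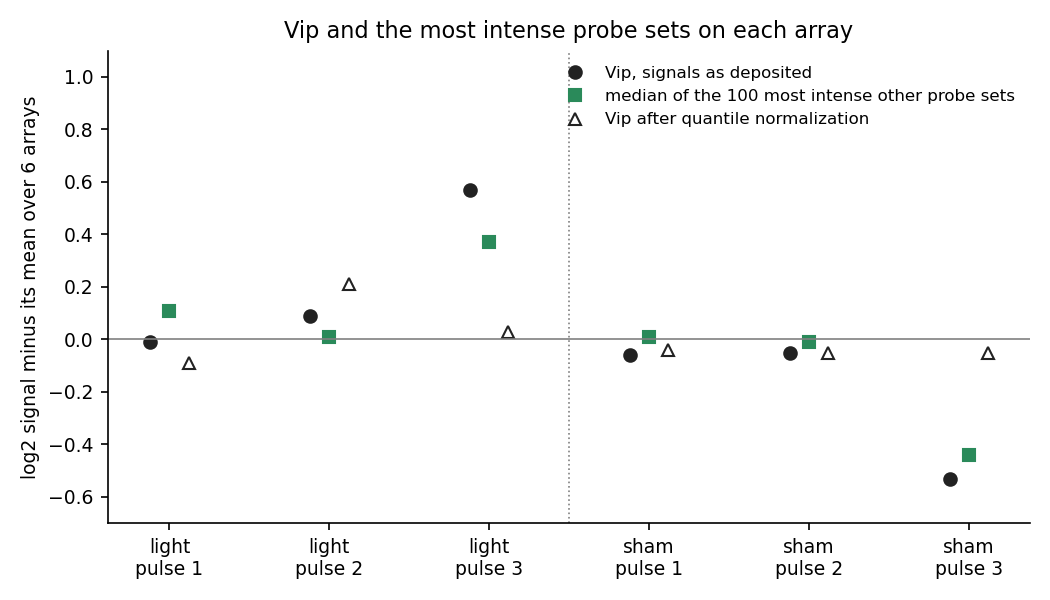
Log2 signal minus its mean over the 6 arrays, for Vip as deposited, for the median of the 100 other probe sets of highest mean signal, and for Vip after quantile normalization, on each of the 3 light pulse arrays and 3 sham light pulse arrays. Vip and the 100 probe sets are both highest on light pulse replicate 3 (0.57 and 0.37) and lowest on sham light pulse replicate 3 (-0.53 and -0.44), and the normalized Vip values lie between -0.09 and 0.21.

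Grp, the precursor of gastrin-releasing peptide, was the steadiest member. Its signals were 6807, 7297 and 7234 on the light pulse arrays and 6220, 5949 and 6751 on the sham light pulse arrays (1424525_at). The highest of the 6 was only 1.23 times the lowest, and the SD of the log2 signals within groups was 0.08, against a median SD of 0.26 over the 500 probe sets nearest in signal. The groups did not overlap, with the lowest light pulse array at 6807 and the highest sham light pulse array at 6751. The log2 fold change was 0.17 (standard error 0.20), or 1.13-fold (0.835 to 1.53), and limma did not call it (adjusted p = 0.961). Vip and Grp were the 2 members of 8 whose light pulse arrays all lay above the sham light pulse arrays, where 5.62% of the kept probe sets and 5.74% of the kept genes did so. None, 0 of 8, lay below, where 4.46% of the probe sets and 4.38% of the genes did. After quantile or cyclic loess normalization neither gene had groups that stayed apart.

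Vip is a known target of cAMP signaling through the cAMP response element (CRE), the DNA site of the transcription factor CREB. The study asked whether genes that light induces share this element. It reported a conserved CRE in most of them, Fos included, from matrix matches in a longer stretch upstream of the start codon. The search here took exact letters in windows around the transcription start, so its sites and those of the study cannot be compared directly. RefSeq windows ran from 250 bases before to 50 after the transcription start (GRCm38.p6). They were searched on both strands for the full CRE, TGACGTCA, and for its short form, TGACG. The short form overlaps with the full site and stands in it on each strand. The promoters of 1 chromosome were left out of the search. Windows were found for 8 of the 10 genes, and Grp and Penk were not searched. Positions are counted from the start, with -1 the base before it. Among these 8 genes the full site was found in Sst alone, at -48, and in 1.79% of the 32851 promoters searched. At least 1 short site was found in Vip, Sst, Cck, Tac1 and Gal, and in 20.8% of the promoters searched. The promoter stretches of Sst and Vip are shown with that of Fos, a gene called in the same comparison, with the searched letters in capitals (the full site in Sst and short sites in Vip and Fos). They cover chr16:23890849-23890928 (minus strand), chr10:5639101-5639180 (plus strand) and chr12:85473755-85473834 (plus strand).
Sst: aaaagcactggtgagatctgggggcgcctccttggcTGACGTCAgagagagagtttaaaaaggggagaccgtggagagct
Vip: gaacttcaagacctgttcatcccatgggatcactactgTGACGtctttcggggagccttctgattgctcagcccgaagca
Fos: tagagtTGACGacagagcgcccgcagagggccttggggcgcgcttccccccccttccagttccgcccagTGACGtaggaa
Fos, with short sites at -129 and -66, was called at 4.94 on the log2 scale (standard error 0.31, adjusted p = 3.35e-06 from limma). Vip, with a short site at -79, and Sst, with the full site, had log2 fold changes of 0.43 and 0.46 and were not called. A match of letters is a description of these windows and shows no binding.

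Avp, the vasopressin precursor of shell neurons, varied most among the 8 kept members. Its signals were 810.6, 981.7 and 573.1 on the light pulse arrays and 617.1, 282.4 and 737.1 on the sham light pulse arrays (1450794_at). The groups overlapped, and sham light pulse replicate 2 was low. The highest array had 3.48 times the signal of the lowest, and the SD of the log2 signals within groups was 0.59, against a median of 0.40 over the 500 probe sets nearest in signal. Avp had the largest log2 fold change of the members, 0.61 (standard error 0.38), or 1.53-fold (0.864 to 2.69), which was not called (adjusted p = 0.960 from limma). Without sham light pulse replicate 2 it was 0.19.

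Vasopressin is also made by magnocellular neurons of the hypothalamus, whose other cells make oxytocin. Oxt had signals of 587.8, 334.8 and 353 on the light pulse arrays and of 700, 349 and 286.9 on the sham light pulse arrays. The log2 fold change of Oxt was -0.00 (standard error 0.39). The array with the lowest Avp signal, sham light pulse replicate 2, had Oxt at 349, near the middle of its values, and the array with the highest, light pulse replicate 2, had 334.8. Of 15 marker genes of neighbouring hypothalamic neurons 11 were on the array and 5 were kept, and their summed signal ran from 2203 to 2482 in the light pulse group and from 2168 to 2928 in the sham light pulse group. Hdc, 1 of the 5, had signals of 1004.5, 810.7 and 1127.5 on the light pulse arrays. On the sham light pulse arrays it had 1131.5, 928.1 and 864.6. Pomc, also kept, had 155.7, 625.6 and 319.9 on the light pulse arrays and 712.6, 741.9 and 574 on the sham light pulse arrays. Npy reached 118.2 on 1 array and Hcrt on 2. The part of neighbouring neurons in the Avp signal was not tested. The genes with the profile most like that of Avp were Gtf3c1 (root mean square difference 0.112), Elmo1 (0.148) and Tmem199 (0.148), among 16 of 6731 genes within 0.2.

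Penk, the enkephalin precursor, had signals of 941.6, 1383 and 1212 on the light pulse arrays and of 1089, 750.8 and 1357 on the sham light pulse arrays (1427038_at). The groups overlapped, and Penk and Avp were both lowest on sham light pulse replicate 2 and highest on light pulse replicate 2. The log2 fold change of Penk was 0.17 (standard error 0.31), or 1.13-fold (0.714 to 1.77), with an adjusted p of 0.970 from limma. Without sham light pulse replicate 2 it was -0.062. That array was the lowest of the 6 for 1555 of 6739 kept genes (23.1%), more than any other array, and the highest for 1250 (18.5%). Of 6 kept oligodendrocyte markers 3 were at their lowest on it as well (Mbp, Mobp and Cnp), and Cldn11, Mag and Mal were not. The summed signal over 7 markers, most of it from Mbp (21739), was 29140 there. The sum was 37670 to 52380 on the light pulse arrays and 39520 and 54420 on the other sham light pulse arrays. Among astrocyte markers 2 of 7 were lowest and 2 of 7 highest there. Their part in the Avp and Penk values was not tested.

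Prok2 encodes prokineticin 2, a secreted signal of the SCN that is known to follow the clock. Its best probe set (1419681_a_at) had signals of 147.9, 233 and 187.3 on the light pulse arrays and of 109.4, 167.2 and 140.2 on the sham light pulse arrays. Light pulse replicates 2 and 3 lay above the highest sham array, but replicate 1 did not, and the log2 fold change was 0.44 (standard error 0.47), or 1.36-fold (0.678 to 2.73), with an adjusted p of 0.960 from limma. A second probe set (1426176_a_at) had 104.3, 65.7 and 65.3 on the light pulse arrays and 44.7, 64.5 and 61.3 on the sham light pulse arrays. These groups did not overlap, but all 6 signals were under 118.2 and no fold is drawn from them. The third (1451952_at) had 21.2, 29.5 and 30 on the light pulse arrays and 22.2, 44.8 and 24.1 on the sham light pulse arrays. Its groups overlapped, but all 6 signals were again under 118.2, so that only the best probe set can be read for this gene.

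Avp and Prok2 are clock outputs that CLOCK and BMAL1 drive through the E-box, CACGTG. Each had 1 such site in the RefSeq window, at -139 in Avp and at -135 in Prok2, and Cck and Tac1 also had 1, where 7.15% of the promoters searched had at least 1. The stretches around the sites of Avp and Prok2 are shown with the E-box in capitals, since these genes are the E-box outputs among the shell peptides. They cover chr2:130582685-130582764 and chr6:99726485-99726564, both on the minus strand of GRCm38.p6.
Avp: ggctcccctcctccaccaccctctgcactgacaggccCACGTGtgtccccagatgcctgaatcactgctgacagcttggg
Prok2: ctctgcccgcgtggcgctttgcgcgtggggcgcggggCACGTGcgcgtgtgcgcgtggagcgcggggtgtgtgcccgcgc
Both genes had positive log2 fold changes, 0.61 and 0.44, neither of which passed.

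Core and shell peptides did not part at the end of the light pulse beyond the spread between arrays. The mean log2 signal of Vip and Grp minus that of Avp, Penk and Prok2 was 5.15, 4.75 and 5.41 on the light pulse arrays and 5.26, 5.59 and 4.78 on the sham light pulse arrays, so that the groups overlapped. The difference averaged 5.11 ± 0.33 after the light pulse and 5.21 ± 0.41 after the sham light pulse (SD, n = 3 each). Log2 fold changes averaged 0.30 over the core peptides and 0.41 over the shell peptides, which leaves -0.11 between them, less than the SD of 0.37 within groups. No test was made of this score. It was -0.26 without light pulse replicate 3, and its direction turned without light pulse replicate 2 (0.07) and without sham light pulse replicate 2 (0.08).

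**Figure D4:**
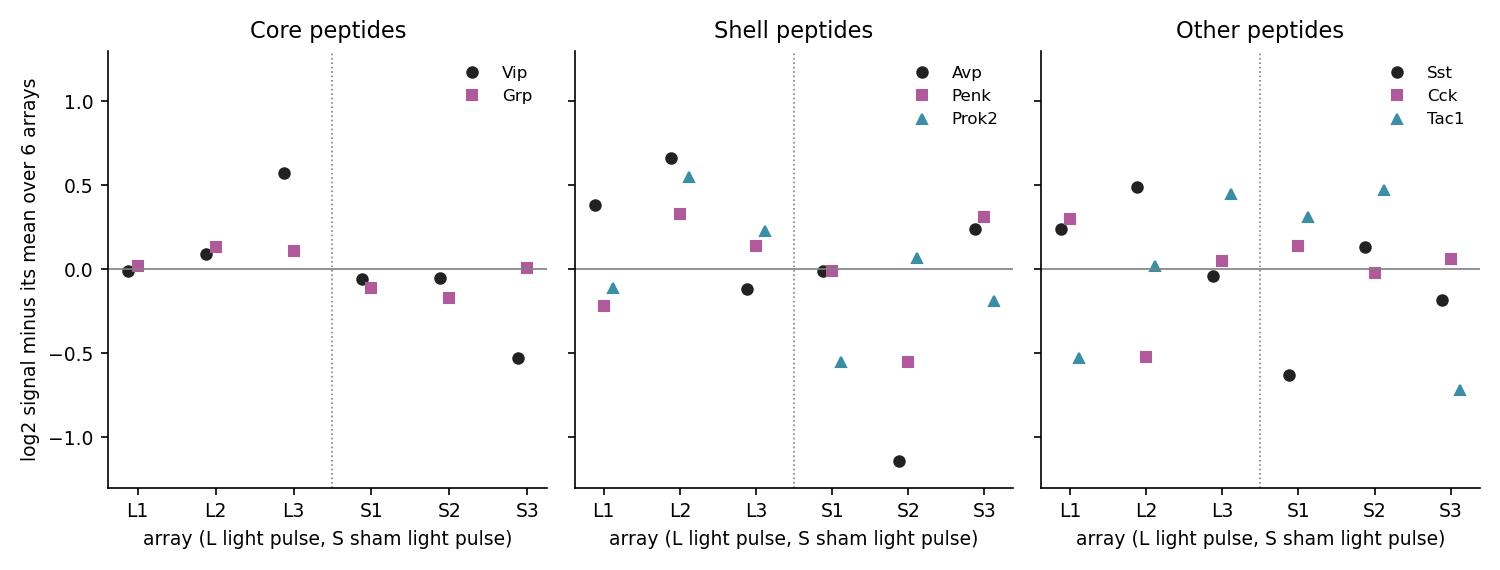
Log2 signal minus its mean over the 6 arrays, for the core peptides Vip and Grp, the shell peptides Avp, Penk and Prok2, and the other kept peptides Sst, Cck and Tac1, on light pulse replicates 1 to 3 (L1 to L3) and sham light pulse replicates 1 to 3 (S1 to S3). Grp stays between -0.17 and 0.13, while Avp runs from -1.14 on S2 to 0.66 on L2.

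Sst, the somatostatin precursor, had signals of 191.9, 227.3 and 158.3 on the light pulse arrays and of 104.7, 177.2 and 142.8 on the sham light pulse arrays (1417954_at). The light pulse mean was 192.5 ± 34.5 and the sham light pulse mean 141.6 ± 36.3 (SD, n = 3 each), and the groups overlapped. The log2 fold change was 0.46 (standard error 0.46), or 1.38-fold (0.690 to 2.75), with an adjusted p of 0.960 from limma.

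Cck, the cholecystokinin precursor, had signals of 408.4, 230.1 and 341.1 on the light pulse arrays and of 363.2, 325.9 and 344 on the sham light pulse arrays (1419473_a_at). The range of the light pulse arrays took in all 3 sham light pulse arrays, and the log2 fold change was -0.12 (standard error 0.34, 95% confidence interval -0.85 to 0.62). Tac1, whose precursor yields substance P and neurokinin A, had 125, 183 and 246.9 on the light pulse arrays and 224.6, 249.6 and 109.7 on the sham light pulse arrays (1416783_at). Both groups covered much the same range, and the log2 fold change was -0.04 (standard error 0.48, 95% confidence interval -1.08 to 1.00).

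Gal, the galanin precursor, had signals of 160.6, 82.8 and 77.4 on the light pulse arrays and of 134.9, 95.6 and 117.4 on the sham light pulse arrays (1460668_at). It reached 118.2 on 2 of 6 arrays, 1 in each group. In a fit of all probe sets its log2 fold change was -0.19 (standard error 0.63, 95% confidence interval -1.51 to 1.14), with an adjusted p of 0.989 from limma. Pdyn, the dynorphin precursor, had 42.5, 4.5 and 4.5 on the light pulse arrays and 62.8, 7.8 and 3.5 on the sham light pulse arrays (1416266_at). With replicate 1 at 42.5 or more and the others at 7.8 or less in both groups, no fold is drawn for Pdyn.

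Genes that work with the peptides were not called either. Of 39 other peptide precursors 23 were on the array, 5 of them were kept (Pomc, Oxt, Apln, Tac2 and Cartpt), and limma called 0. Pomc, the precursor of melanocortins, had the highest mean log2 signal of these, with signals of 155.7, 625.6 and 319.9 on the light pulse arrays and of 712.6, 741.9 and 574 on the sham light pulse arrays. The groups overlapped through light pulse replicate 2, with an estimate of -1.09 on the log2 scale (standard error 0.43) that limma did not call (adjusted p = 0.960). Tac2, the neurokinin B precursor, named after its values were seen, was the 1 gene of the 5 whose groups did not overlap. It had 147.8, 125.3 and 147.4 on the light pulse arrays and 12.2, 105.1 and 109.8 on the sham light pulse arrays. Tac2 reached the limit for keeping on 3 arrays, all of the light pulse group, and was kept through that group alone. A gene kept in this way cannot have overlapping groups. Its separation is therefore not weighed against the 5.74% of all kept genes that lay wholly higher. Of 10 genes that package or cut precursors 9 were kept and 0 were called, with a median log2 fold change of 0.09 and a range of -0.52 (Scg3) to 1.07 (Pcsk1n). Scg5, which encodes the secretory protein 7B2, was the 1 gene of the 9 whose groups did not overlap, where 4.38% of all kept genes lay lower in this way. It had 2623, 2794 and 3202 on the light pulse arrays and 3507, 3606 and 3617 on the sham light pulse arrays, with an estimate of -0.32 on the log2 scale (standard error 0.23). Scg3, a granule protein of the same list, had an estimate of -0.52 (95% confidence interval -1.03 to -0.01), and its groups overlapped. Both were named after their values were seen. Cpe, a carboxypeptidase that trims peptides after cleavage, had signals of 27496, 35951 and 43885 on the light pulse arrays and of 30963, 39016 and 24625 on the sham light pulse arrays, again highest on light pulse replicate 3 and lowest on sham light pulse replicate 3 as Vip was. Of 23 receptors for these peptides 21 were on the array, 4 were kept (Vipr2, Grpr, Avpr1a and Cckbr) and 0 were called. All 4 had log2 fold changes below 0, from -0.68 for Avpr1a to -0.14 for Cckbr, with a median of -0.31. Each of the 4 95% confidence intervals took in 0, and 3375 of the 6739 kept genes lay above 0. By comparison, 7 of the 12 genes that the study lists as induced by light were called, all higher. The study chose this list on these same arrays and then found the 12 genes increased by qPCR as well. Klf4, Gadd45b, Btg2, Tiparp and Jun, at log2 fold changes of 1.81, 1.57, 1.86, 1.26 and 1.19, were not called here. A gene that was not called is therefore not shown to be unchanged.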

How the data were processed

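The deposited values are signal intensities that the authors calculated by the MAS5 algorithm in GCOS software, with arrays scaled to a common level. The values are on a linear scale, with no present calls used here. Each array was made from 1 ng of total RNA after 2 rounds of amplification. Groups and replicate numbers came from the sample labels. A platform annotation table gave 1 gene symbol to 20380 probe sets, several to 691 and none to 1555, and only probe sets with 1 symbol were named.

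The log2 of the signal was taken with no offset and compared with limma 3.58.1 in R 4.3.3 (lmFit, eBayes with a trend on intensity). Tests were two-sided, and p-values were adjusted by Benjamini-Hochberg over 10340 probe sets (threshold 0.05). These probe sets had the highest rank 3 signal over 6 arrays, in place of the methods' filter on present calls. Cyber-T was written anew from its description (window 101, prior weight 10). Both tests were run on simulated data as a check of the code. The changes simulated were larger than those of the members, so the power to find changes of the members' size was not measured. The labels do not say whether the pools share mice, so the p-values reflect only how far these pools differ. Precision is limited by having 3 arrays in each group.

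All probe sets of the 10 genes are named, with Fos and Egr1 and the profile neighbours of Vip and Avp. The genes named from the other lists are not always those of highest signal. Some were named after their values were seen, as stated there. The members and lists were chosen with earlier results of these data known. Promoters were searched with Python 3.11.15. Alternatives were other filters (none, 5000 probe sets), quantile, 75th percentile and cyclic loess scaling, an offset of 50, no trend, Cyber-T, the replicate number as a block, 1 probe set per gene and leaving out each array.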

Additional observations from a re-analysis of the deposited data

How the results depend on the processing

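Neither limma nor Cyber-T called any peptide precursor under the alternatives run. The count of called probe sets, 7, ran from 5 to 8 with 1 array left out and was 4 without the intensity trend, and the cause was not tested. Without a filter, with a stricter one or with an offset it was 8, and with Cyber-T 5. The log2 fold changes of Vip, Grp, Avp, Prok2, Sst, Fos and Egr1 kept their direction throughout. With 1 array left out, that of Vip ran from 0.25 to 0.54, of Avp from 0.19 to 0.88, of Prok2 from 0.28 to 0.61 and of Sst from 0.26 to 0.64. Directions turned with 1 array left out for Penk (-0.062 to 0.37, below 0 without sham light pulse replicate 2), Cck (-0.30 to 0.12, above 0 without light pulse replicate 2), Tac1 (-0.41 to 0.21, above 0 without light pulse replicate 1 at 0.21, sham light pulse replicate 1 at 0.11 or sham light pulse replicate 2 at 0.18) and Gal (-0.52 to 0.0061, above 0 without light pulse replicate 3). The median log2 fold change of all kept genes stayed between -0.015 and 0.003 under the scalings run. The core minus shell difference ran from -0.32 to 0.08 with 1 array left out, above 0 without replicate 2 of either group, and from -0.28 to -0.05 under other scalings and the offset. With the replicate block 6 probe sets and none of the members were called. Same-numbered arrays deviated together with correlations of 0.096, -0.192 and -0.129, so the numbers were not taken to pair the samples. Higher correlations were found between arrays of unlike number. They were 0.203 for light pulse replicate 3 with sham light pulse replicate 2, and 0.196 for light pulse replicate 2 with sham light pulse replicate 3. The stricter filter held no Prok2, Sst, Cck or Tac1 probe set. Signals near 118.2 limit Prok2, Sst, Tac1 and Gal, and signals under it Pdyn.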

Other observations

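Sham light pulse replicate 2, the array lowest in Avp and Penk, held the lowest signals of some genes and the highest of others, and the genes named here were chosen after their values were seen. Of 11 kept SCN neuron markers 2 were lowest there and 2 highest, and of 9 kept genes that package or cut precursors 2 were lowest and 1 highest. Of 7 kept astrocyte markers 2 were lowest there (Gfap and Aldh1l1) and 2 highest (Aqp4 and Slc1a3). Over all kept genes 23.1% were lowest there and 18.5% highest, so these counts are not read as a trait of the lists. Chga, which encodes the granule protein chromogranin A, had 6292, 7405 and 7578 on the light pulse arrays and 6309, 2964 and 6582 on the sham light pulse arrays. Scg3, another granule protein, had 5096, 4096 and 3744 on the light pulse arrays and 4945, 6825 and 6814 on the sham light pulse arrays. Calb2, which encodes the calcium-binding protein calretinin, had 945.9, 2274 and 750.3 on the light pulse arrays and 863.5, 349.1 and 1800 on the sham light pulse arrays. Gfap, an astrocyte marker, had 371.9, 453.2 and 478.2 on the light pulse arrays and 365.5, 75.6 and 376.3 on the sham light pulse arrays. Chga, Calb2 and Gfap were lowest on sham light pulse replicate 2, and Scg3 was highest there.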
